A study of Mus musculus with 8 samples.

Results

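The effect of losing Max in B cells that already lacked Myc was read from 4 of the 8 RNA-sequencing libraries of the series. The 2 double_KO libraries, deficient in Myc and Max, were set against the 2 Myc_KO libraries, deficient in Myc alone. Of the 15681 genes in the deposited table, the 12489 with a log2 value of 0 or more in at least 2 of the 8 libraries were tested; a log2 value of 0 is 1 RPM. All groups were mature B lymphocytes sorted from mouse spleen at 8 to 10 weeks of age, activated in culture with lipopolysaccharide (LPS) at 20 µg/ml and interleukin 4 (IL-4) at 20 ng/ml, and harvested at 72 h. The other groups were a heterozygous control, for which the labels do not name the allele, and Max_KO, deficient in Max with Myc present, with 2 libraries each. Strain, Cre driver and time of deletion are not named in the sources used here. The same sources do not say how many mice gave a library. The 4 libraries held 14.88 to 17.89 M estimated reads, the lowest being Myc_KO replicate 1. Each of the 4 groups held 1 library that expressed Xist and 1 that expressed the Y-linked Ddx3y, so its libraries stem from different animals, of unlike sex.

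Max is a basic helix-loop-helix zipper protein that Myc needs as a partner to bind DNA at the E-box, a short palindrome of bases found in many promoters. Max also pairs with Mnt, with the Mxd proteins (Mxd1, Mxi1, Mxd3 and Mxd4) and with Mga, and these dimers bind the same E-box as repressors. With Mga, Max is also a part of PRC1.6, a Polycomb complex that silences germline and meiosis genes in somatic cells. In cells without Myc, Max can therefore still act through Mnt, Mxd proteins and Mga, and through the related family members Mycn and Mycl where these are made.

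Groups follow the titles, which are also the column names of the deposited table. For 2 libraries the descriptions and the genotype field give the other genotype: the library titled KB32_DKO (double_KO replicate 1 here) is described as Myc-deficient, and the library titled KB44_MYC_KO (Myc_KO replicate 2) is described as doubly deficient. The Max gene (ENSMUSG00000059436) lies on chromosome 12 of GRCm38, at 76937269 to 76962201. Myc_KO libraries had 70.5 and 59.8 RPM of Max, and double_KO libraries 28.6 and 31.2 RPM. It was at 55.0 and 54.5 RPM in the controls and at 16.4 and 15.5 RPM in Max_KO. Under the titles both double_KO libraries thus lay below both Myc_KO libraries; under the descriptions each group would hold 1 library at or below 31.2 RPM and 1 at or above 59.8 RPM. Max fell by 1.12 on the log2 scale (SE 0.117, limma adjusted p = 0.011) in double_KO against Myc_KO. Myc (chromosome 15, 61985391 to 61990374) was at 48.3 and 55.8 RPM in Myc_KO and at 38.8 and 55.4 in double_KO, below the 111 and 116 RPM of the controls in all 4 libraries. The Myc values of the 2 groups overlapped (log2 change -0.16, SE 0.16, limma adjusted p = 0.742). RPM here is the deposited log2 value turned back into a linear one, that is estimated reads plus 0.5 per M reads of an effective library size; it counts a whole gene, so that shortened and intact transcripts are not told apart.

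Max loss in cells lacking Myc moved few genes past the test, and most of these upward. Of 12489 genes, 57 (0.456%) were called at a limma adjusted p under 0.05 after Benjamini-Hochberg adjustment: 52 were higher in double_KO (0.416%) and 5 lower (0.04%). At an unadjusted p under 0.05 there were 1602 genes (12.8%). The median log2 change over all genes tested was 0.01, and that of the 52 higher genes was 1.05, with a range of 0.50 to 7.58. At least 2-fold changes were found for 27 of the higher and 2 of the lower genes. Both libraries of double_KO lay above both of Myc_KO for 22.5% of all genes tested and below both for 18.9%, so a lack of overlap is common among genes that were not called. For comparison, Max loss with Myc present (Max_KO against control, which shares no library with the comparison above) called 22.3% of genes higher and 17.4% lower.

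The number of calls depended strongly on which libraries entered the fit. With groups from the descriptions no gene was called by limma in either direction, with 1315 genes at an unadjusted p under 0.05, and 35 of the 57 genes kept their direction. Without the 2 disputed libraries 19 genes were called higher and 7 lower, 9 of them among the 57. Leaving out either control library left 10 higher and 0 lower, while leaving out either Max_KO library gave 82 or 84 higher and 30 or 29 lower; these libraries enter the comparison only through the shared estimate of the spread. Without Myc_KO replicate 1 the counts were 15 and 2, without Myc_KO replicate 2 they were 34 and 2, without double_KO replicate 1 they were 7 and 2, and without double_KO replicate 2 they were 11 and 1. All 57 kept their direction in each of these 8 fits. Stag3, Ptprs, Camk2a, Pogk and Atp11a were called in each of the 8.

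**Figure D1:**
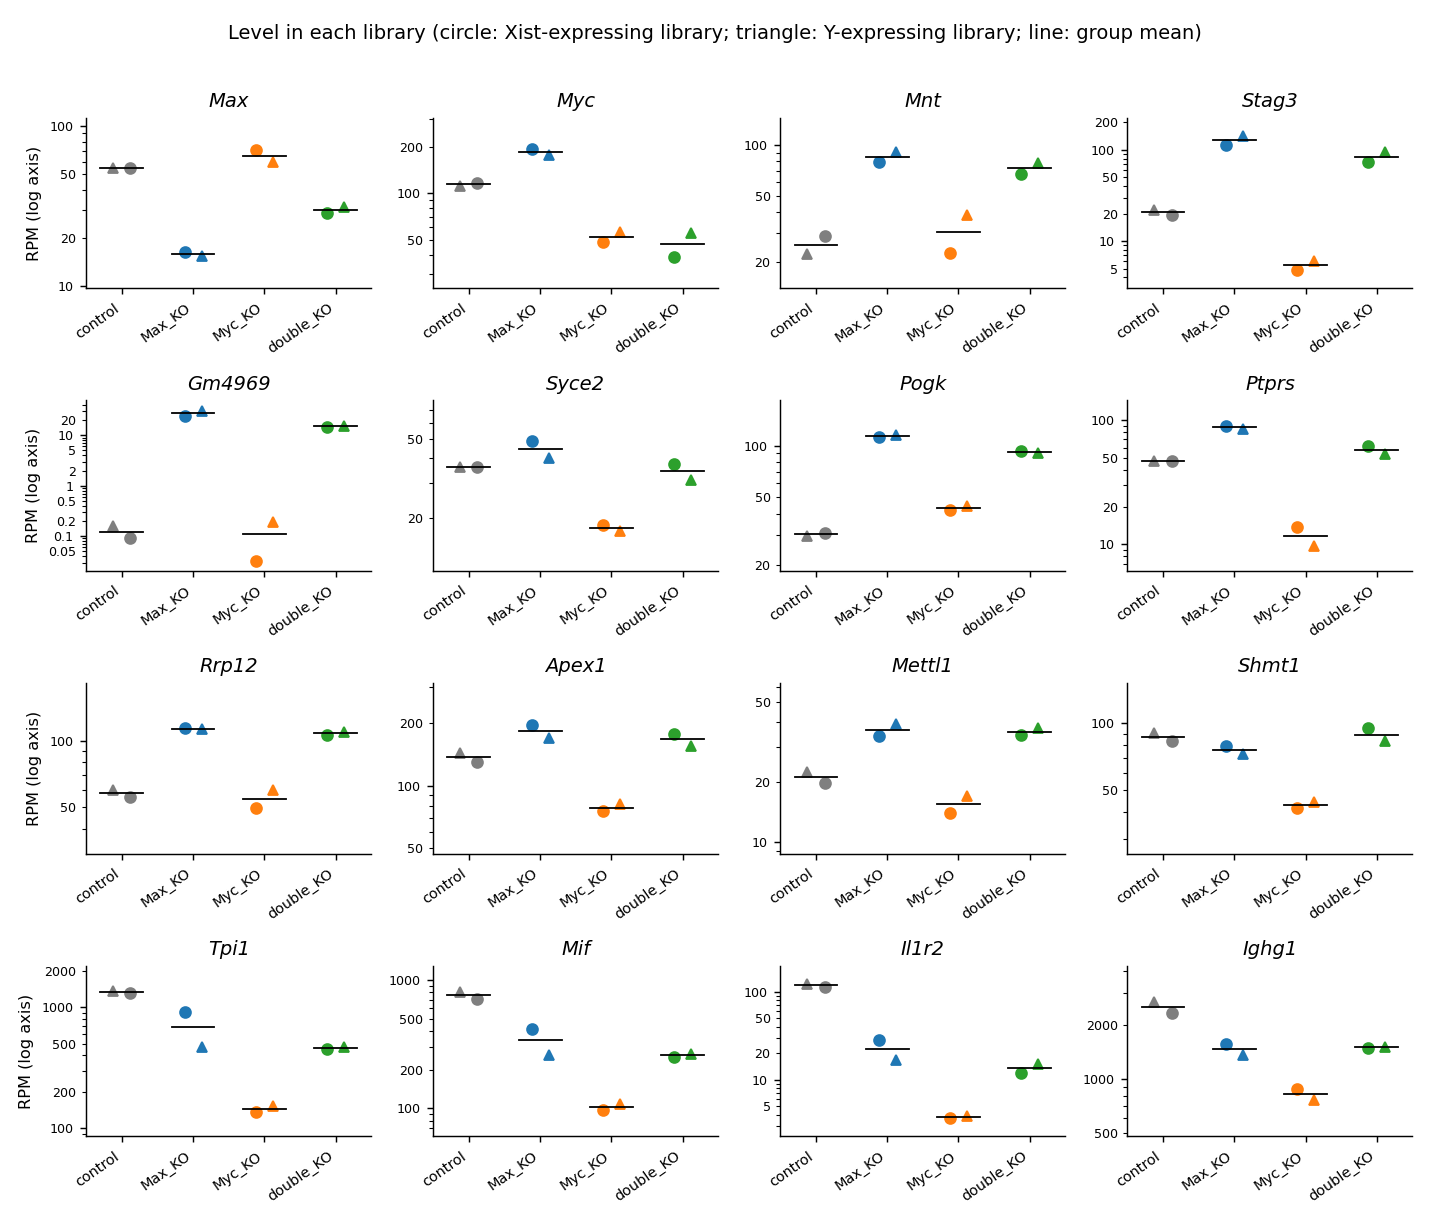
Level of 16 genes in each of the 8 libraries (RPM, log axis), by group on the horizontal axis; circles are Xist-expressing libraries, triangles Ddx3y-expressing libraries, and the line is the group mean of 2 libraries. Max is lower in both double_KO libraries than in both Myc_KO libraries, the Myc values of these groups overlap, and the other 14 genes are higher in both double_KO libraries.

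The germline genes Stag3 and Gm4969 were among those with the largest changes. Syce2 and Taf4b changed by less than the median of the 52 higher genes (1.05). Stag3 (ENSMUSG00000036928, chromosome 5, 138280240 to 138312393), which encodes the meiosis-specific cohesin subunit, was at 4.86 and 6.07 RPM in Myc_KO and at 74.0 and 93.4 RPM in double_KO. The groups did not overlap, and Stag3 rose 15.3-fold (log2 change 3.94, SE 0.175, limma adjusted p = 0.00014). Control libraries were at 22.2 and 19.4 RPM and Max_KO at 113 and 140.4, so that Myc_KO was the lowest of the 4 groups. Gm4969, known in the literature as Meiosin, an activator of the meiotic programme, had 3 reads in both Myc_KO libraries together and 539 reads in both double_KO libraries. The ratio scaled to library size was 169 (95% interval 57.6 to 823, counting error only; limma adjusted p = 0.00791). Gm4969 stood at 24.0 and 30.7 RPM in Max_KO and at 0.156 and 0.091 in the controls. Rnf17, a Tudor-domain protein of the male germline, went from 0.751 and 0.775 RPM to 3.33 and 4.8 (log2 change 2.39, SE 0.332, limma adjusted p = 0.0286). Syce2, a central element of the synaptonemal complex, went from 18.3 and 17.2 RPM to 37.5 and 31.1 (log2 change 0.94, SE 0.141, limma adjusted p = 0.0387), against 35.9 and 36.2 RPM in the controls. Taf4b, a TFIID subunit that acts in germ cells, went from 13.6 and 14.8 RPM to 25 and 27.7 (log2 change 0.89, SE 0.127, limma adjusted p = 0.0336). Its controls were at 15.5 and 16.2 RPM, so it was expressed in B cells with Myc and Max. Gm4969, Rnf17 and Taf4b are outside the germline list and were picked after their values were seen.

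Few other germline genes passed the test. Of the 58 genes of the germline list, 29 were in the table and 19 were tested. Of these, 2 rose (Stag3 and Syce2), where 0.416% of all genes tested rose, and none fell. The median log2 change was 0.19 beside 0.01 for all genes. Both double_KO libraries lay above both Myc_KO libraries for 6 of the 19 and below for 2, beside 22.5% and 18.9% of all genes tested. Syce2 was not called with voom weights, with no mean-variance trend or with only the groups compared, which left Stag3 alone. Both stayed called under other filters, pseudocounts and scalings. Smc1b, another meiotic cohesin subunit, was at 0.751 and 0.508 RPM in Myc_KO and 1.82 and 2.88 in double_KO (limma adjusted p = 0.284). The meiotic recombination factor Prdm9 was at 27.1 and 26.5 RPM in Myc_KO and at 17.9 and 18.2 in double_KO (log2 change -0.57, limma adjusted p = 0.14). The median turned negative, -0.39, without Myc_KO replicate 1. The PRC1.6 list had 18 tested members, of which 1, Max itself, fell and none rose (median log2 change 0.04). Over all genes tested, 0.04% fell. L3mbtl2, a reader subunit, was at 87.1 and 93.2 RPM in Myc_KO and 116 and 109 in double_KO (limma adjusted p = 0.21), and E2f6, the DNA-binding subunit, at 27.5 and 24.6 and at 26.2 and 26.4 (adjusted p = 0.981).

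Among the members of the Max network only Max was called. The 11 tested of 13 had a median log2 change of 0.14, with 1 lower and none higher. Over all genes tested, 0.04% fell and 0.416% rose. Mnt, the most general of the repressing partners, was at 22.8 and 38.1 RPM in Myc_KO and at 67.7 and 78.2 in double_KO. These did not overlap, and the log2 change of 1.30 (SE 0.232) missed the threshold (limma adjusted p = 0.0663). Mga, the PRC1.6 partner, was at 141 and 136 RPM in Myc_KO and 185 and 200.2 in double_KO (log2 change 0.47, adjusted p = 0.113). Mxi1, a Mxd family repressor, was at 9.43 and 7.33 RPM against 14.8 and 13.5 (log2 change 0.77, adjusted p = 0.246), while the libraries of Mxd1 overlapped (15.5 and 17.2 against 13.6 and 16.3 RPM). Within 5 Mb of Max on chromosome 12, none of 57 other tested genes was called, 10 had an unadjusted p under 0.05, and the median log2 change was -0.02.

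The E-box was frequent in front of the genes that rose, and 5 promoter windows show where it lies. Each is 300 bases of RefSeq sequence (GRCm38.p6), from 250 bases before to 50 bases after a gene's start in RefSeq, read 5′ to 3′ on the gene's strand. Capitals mark the E-box CACGTG, which reads the same on both strands, and in Stag3 and Syce2 also TTCCCGC or its reverse complement GCGGGAA, the core of the E2F-type site through which E2f6 of PRC1.6 binds DNA. Stag3 and Syce2 are shown as germline genes, Pogk as a gene called in each of the 8 fits that leave out a library, Mettl1 as a tRNA-modifying enzyme and Apex1 because it holds 3 E-boxes.
Stag3, chr5:138280259-138280558, plus strand: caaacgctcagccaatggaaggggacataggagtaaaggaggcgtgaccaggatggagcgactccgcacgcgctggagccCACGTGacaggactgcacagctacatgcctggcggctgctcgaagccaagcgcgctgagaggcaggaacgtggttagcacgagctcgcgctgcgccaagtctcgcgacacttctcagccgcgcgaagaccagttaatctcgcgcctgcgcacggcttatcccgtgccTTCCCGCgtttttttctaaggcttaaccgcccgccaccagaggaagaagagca
Syce2, chr8:84872008-84872307, plus strand: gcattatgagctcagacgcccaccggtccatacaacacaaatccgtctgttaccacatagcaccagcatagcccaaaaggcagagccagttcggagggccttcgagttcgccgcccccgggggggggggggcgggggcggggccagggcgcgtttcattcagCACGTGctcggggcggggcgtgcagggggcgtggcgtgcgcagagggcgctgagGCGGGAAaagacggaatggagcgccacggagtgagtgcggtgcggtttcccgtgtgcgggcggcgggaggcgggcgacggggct
Pogk, chr1:166409779-166410078, minus strand: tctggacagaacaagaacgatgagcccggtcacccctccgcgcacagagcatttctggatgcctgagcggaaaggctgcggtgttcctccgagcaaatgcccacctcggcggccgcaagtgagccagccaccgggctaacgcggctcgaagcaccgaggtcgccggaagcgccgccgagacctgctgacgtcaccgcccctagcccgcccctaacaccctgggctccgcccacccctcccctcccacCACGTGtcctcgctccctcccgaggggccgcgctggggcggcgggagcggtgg
Mettl1, chr10:127041682-127041981, plus strand: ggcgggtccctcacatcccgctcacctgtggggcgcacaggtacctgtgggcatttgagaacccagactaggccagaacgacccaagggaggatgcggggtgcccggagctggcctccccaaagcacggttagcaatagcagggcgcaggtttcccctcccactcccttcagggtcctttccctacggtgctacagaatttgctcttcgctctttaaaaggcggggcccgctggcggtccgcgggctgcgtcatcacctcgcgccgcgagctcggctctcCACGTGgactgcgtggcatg
Apex1, chr14:50924699-50924998, plus strand: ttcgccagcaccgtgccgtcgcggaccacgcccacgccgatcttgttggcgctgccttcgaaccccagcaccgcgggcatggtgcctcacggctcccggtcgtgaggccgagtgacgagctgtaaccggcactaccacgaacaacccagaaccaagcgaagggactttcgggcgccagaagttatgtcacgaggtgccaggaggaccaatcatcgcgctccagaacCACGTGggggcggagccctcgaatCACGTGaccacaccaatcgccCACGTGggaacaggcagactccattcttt

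Counted from the RefSeq start as 1, which for all 5 genes differs from the start of the GENCODE gene, the E-box began at position -170 in Stag3, -88 in Syce2, -3 in Pogk and 31 in Mettl1, and at -24, 1 and 22 in Apex1. Of the 52 genes that rose, 44 had a window in the RefSeq table and 27 of these (61.4%) held CACGTG. Among tested genes with a window 1130 of 9331 (12.1%) did. Counted by window, it was in 28 of 52 (53.8%) for the genes that rose and in 10.2% for tested genes. Over all 32851 windows, also of genes not tested, it was in 2349 (7.15%). By gene, the share was 21 of 26 (80.8%) among those that rose in both comparisons of Max loss. It was 4 of 10 among those not called in Max_KO against control, and 2 of 8, Il1r2 and Ttc21a, among those that fell there. Among uncalled genes with an unadjusted p under 0.05 it was 22% (155 of 703) for those with a higher value in double_KO and 7.3% (34 of 466) for those with a lower one. Genes called higher in Max_KO against control held it in 14.7% of cases (312 of 2125) and genes called lower in 10.6% (174 of 1645). Of the 34 distinct matches in the windows of the genes that rose, 25 began between 100 bases before and 50 bases after the start. TTCCCGC, searched on both strands and added after the data were seen, was in 4 of 44 (9.09%) of the genes that rose and in 10.1% of all tested. A match is a description of letters, not of a bound site or a cause. The classes were not matched for base composition or expression level.

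**Figure D2:**
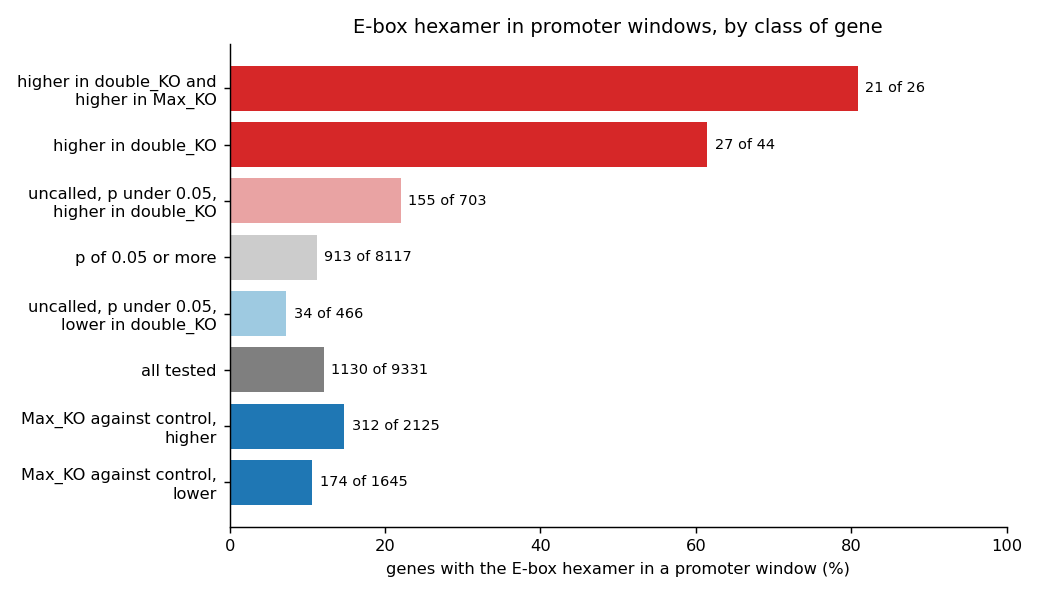
Share of genes (%) with CACGTG in a RefSeq promoter window, by class of gene; numbers beside the bars are genes with the hexamer of genes with a window. Genes higher in double_KO against Myc_KO stand at 61.4% and those higher in both comparisons of Max loss at 80.8%, against 12.1% of all genes tested.

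Several genes with an E-box in their window rose. Pogk, a transposase-derived gene, went from 42.3 and 44.2 RPM in Myc_KO to 92.6 and 90.0 in double_KO, a 2.11-fold rise (log2 change 1.08, SE 0.085, limma adjusted p = 0.00336). Its control libraries were lower than both groups, at 29.5 and 30.9 RPM, and Max_KO was at 113 and 115. Ptprs, a receptor tyrosine phosphatase, went from 13.7 and 9.75 RPM to 62.1 and 53.8 (log2 change 2.32, SE 0.161, limma adjusted p = 0.00253), with the controls between them at 46.9 and 47.2. Derl3, a component of endoplasmic reticulum-associated degradation and a plasma cell gene, went from 14.5 and 18.0 RPM to 56.7 and 54.2 (log2 change 1.78, SE 0.161, adjusted p = 0.00658). The testis-expressed gene Tcam1 was at 1.01 and 1.15 RPM in Myc_KO and at 6.01 and 5.24 in double_KO (5.2-fold, adjusted p = 0.0437). Pcx, pyruvate carboxylase, rose 2.67-fold, and Scfd2, a secretory pathway gene, 2.17-fold (adjusted p = 0.02 and 0.0364). Tcam1, Pcx and Scfd2 were called in 2, 3 and 2 of the 8 fits that leave out a library.

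Camk2a (chromosome 18, 60925618 to 60988152), a calcium-dependent kinase, showed another pattern. It was at 3.36 and 2.86 RPM in Myc_KO and at 16.2 and 16.6 in double_KO, where the controls were at 16.6 and 21.9 and Max_KO at 22.4 and 23.9 RPM. Myc_KO thus stood alone below the other 3 groups, and Camk2a rose 5.3-fold (log2 change 2.41, SE 0.184, limma adjusted p = 0.00336). Camk2a was not the only such gene. Ass1 and Shmt1 had Myc_KO means of 26.6 and 42.8 RPM, with means of 56.0 to 59.5 and 76.0 to 89.1 RPM in the other groups. Among the 52 genes that rose, the Myc_KO mean was below the control mean in 48. The mean of double_KO stayed below that of Max_KO in 43. The 52 were picked for lower values in Myc_KO than in double_KO, which favours the first count. Neither count was set against all genes tested. Control means lay above both groups for 17 of the 52, between them for 31 and below both for 4.

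In the ribosome biogenesis list, 3 of 25 tested members rose, where 0.416% of all genes tested rose, and none fell. The median log2 change was 0.41, beside 0.01 for all genes. Both double_KO libraries lay above both Myc_KO libraries for 23, where 22.5% of all genes did so. Rrp12, a processing factor of the ribosomal subunits, went from 49.5 and 59.7 RPM to 106 and 109.8 (log2 change 0.99, SE 0.106, limma adjusted p = 0.0119). Nat10, an RNA acetyltransferase of the nucleolus, went from 64.8 and 70.1 RPM to 114 and 113 (0.75, SE 0.0903, adjusted p = 0.0164). Pno1, a small subunit assembly factor, went from 76.2 and 64.9 RPM to 119 and 116 (0.74, SE 0.0937, adjusted p = 0.02). Without either control library, or either double_KO library, none of the 3 was called.

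Outside this list, and picked after their values were seen, Mettl1, which methylates tRNA, went from 14 and 16.9 RPM to 34.3 and 37.1 (log2 change 1.21, SE 0.144, limma adjusted p = 0.0155). The DNA repair endonuclease Apex1 went from 75.2 and 81.6 RPM to 178 and 156 (log2 change 1.09, SE 0.108, adjusted p = 0.00791). Nol8, Sdad1, Dhx33, Trmt61a, Prmt3 and Ipo4, which serve ribosome or tRNA maturation or nuclear import, also rose, with log2 changes of 0.77, 0.62, 0.76, 0.80, 0.75 and 0.75. Ung, a uracil-DNA glycosylase that acts in class switching, went from 31.3 and 31.5 RPM to 75.3 and 60.4 (log2 change 1.10, SE 0.119, limma adjusted p = 0.0119). It was the 1 called member of 16 in the class switching and DNA repair list (median log2 change 0.10). Of all genes tested, 0.416% rose.

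Shmt1, a serine hydroxymethyltransferase of one-carbon metabolism, was the 1 called member of 26 in the list of Myc-induced genes. It went from 41.4 and 44.2 RPM to 95.1 and 83.2 (log2 change 1.06, SE 0.104, limma adjusted p = 0.00791), and the controls were at 90.3 and 83.7. The share of all genes tested that rose was 0.416%. All 26 tested members of that list had a log2 change above 0, with a median of 0.31 against 0.01 for all genes. Both double_KO libraries lay above both Myc_KO libraries for 25 of the 26, where 22.5% of all genes did so. Ldha, lactate dehydrogenase, had the largest change of that list, from 365 and 362 RPM to 818 and 912, and was not called (log2 change 1.25, limma adjusted p = 0.0561). Outside the list, and picked after their values were seen, the one-carbon enzyme Mthfd1l rose by 0.79 and the purine synthesis enzymes Atic and Gart by 0.60 and 0.53 on the log2 scale (adjusted p = 0.0384, 0.0266 and 0.0437). The argininosuccinate synthase Ass1 went from 25.6 and 27.7 RPM to 53.4 and 58.6 (log2 change 1.07, SE 0.0988, adjusted p = 0.00663). Controls were at 58.0 and 56.1 RPM for Ass1.

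Of 19 glycolytic genes, 2 (Tpi1 and Aldoc) rose in double_KO against Myc_KO, where 0.416% of all genes tested rose. The sum of the 19 listed genes was 4890.1 and 4758 RPM in Myc_KO, 8442.5 and 8924 in double_KO, 13089 and 8211.5 in Max_KO, and 21279 and 20073 in the controls. None of the 19 fell, and all had a log2 change above 0, with a median of 0.76. For 17 both double_KO libraries lay above both Myc_KO libraries, where 22.5% of all genes tested did so. Tpi1, triosephosphate isomerase, went from 138 and 152 RPM to 449 and 471 (log2 change 1.67, SE 0.248, limma adjusted p = 0.0387), with controls at 1371 and 1317. Aldoc, an aldolase, went from 18.6 and 18.1 RPM to 46.4 and 48.0 (log2 change 1.36, SE 0.207, adjusted p = 0.0403). The lactate exporter Slc16a3 was at 2.91 and 2.86 RPM in Myc_KO and 38.6 and 27.5 in double_KO (log2 change 3.5, SE 0.62, adjusted p = 0.0655), and at 119.7 and 22.1 RPM in the Max_KO libraries.

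The number of glycolysis calls changed with the libraries fitted. Without either Max_KO library 13 of the 19 were called, and with only the 4 libraries compared 9 were called. Without any 1 of the other 6 libraries, or without the 2 disputed ones, none was called, and voom weights, quantile normalization or robust eBayes left 1. The hypoxia response list had none called among 17 and a median log2 change of 0.57. Of the 17, 13 were higher in both libraries, beside 22.5% of all genes tested. Its member Bnip3, a mitophagy gene, was at 13.8 and 11.7 RPM in Myc_KO and 46.7 and 43.8 in double_KO (limma adjusted p = 0.101).

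**Figure D3:**
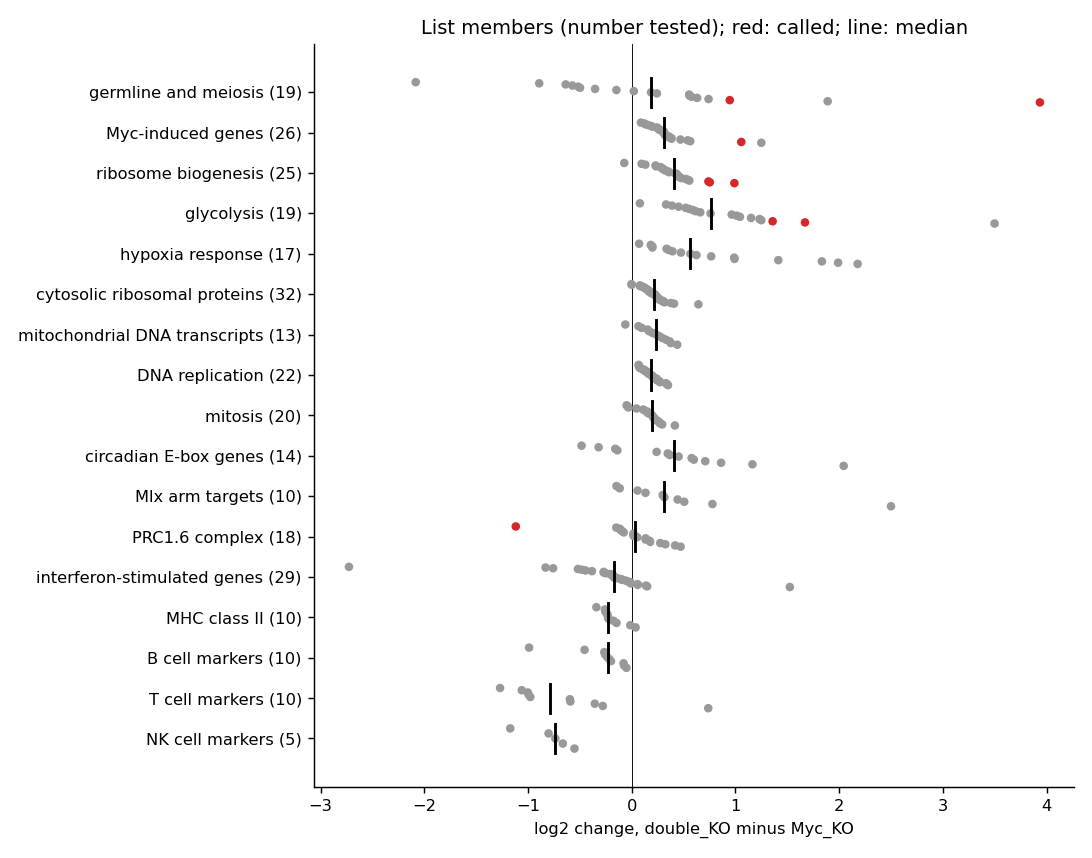
Log2 change in double_KO against Myc_KO for each tested member of 17 gene lists (number tested in brackets); red points passed the test and the vertical bar is the median of the list. All 19 glycolysis genes and all 26 Myc-induced genes lie above 0, the medians of T cell and NK cell markers lie at -0.79 and -0.74, and red points are few in any list.

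Immune genes gave single calls. Ighg1, the IgG1 constant region to which LPS and IL-4 direct class switching, went from 881 and 762 RPM to 1484 and 1504 (log2 change 0.87, SE 0.114, limma adjusted p = 0.0232), with controls at 2673 and 2333. It was the 1 called of 12 immunoglobulin constant regions, whose median log2 change was -0.18, where 0.416% of all genes tested rose. Il1r2, the decoy receptor for interleukin 1, went from 3.62 and 3.88 RPM to 12 and 15.1 (log2 change 1.84, SE 0.243, adjusted p = 0.0232), against 123 and 112 in the controls. The cytokine Mif went from 97.0 and 109 RPM to 253 and 266 (log2 change 1.33, SE 0.192, adjusted p = 0.0336), against 804 and 716. In these bulk samples, fewer cells of a type and less RNA per cell cannot be told apart.

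B cell markers defined the samples: Cd79a, a subunit of the B cell receptor, was at 878 to 1161 RPM in the 4 libraries. None of the 10 B cell markers was called, and the median log2 change was -0.23. Both double_KO libraries lay below both Myc_KO libraries for 5, where 18.9% of all genes tested did so. The 10 MHC class II genes gave none called and a median of -0.23, with 7 lower in both libraries, beside 18.9% of all genes. The CD3 and T cell receptor genes Cd3d, Cd3e, Cd3g and Trac were between 0.587 and 3.36 RPM in the 4 libraries. None of the 10 T cell markers was called, and the median was -0.79. Of the 10, 6 lay lower in both double_KO libraries, beside 18.9% of all genes. The sum over these 10 was 239.9 and 194 RPM in Myc_KO and 236 and 220.4 in double_KO. NK cell markers summed to 222 and 139 RPM in Myc_KO and 90.2 and 129.98 in double_KO, with none of 5 called and a median of -0.74; Gzmb alone was at 127 and 79.7 RPM in Myc_KO and 53.8 and 74.7 in double_KO. Myeloid markers summed to 98.0 and 88.7 RPM in Myc_KO and 92.9 and 119.2 in double_KO. The part of these other cells in the changes above was not tested.

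Only 5 genes fell. Besides Max, Pcmtd1, a gene related to protein methyltransferases, went from 111 and 113 RPM in Myc_KO to 68.5 and 59.5 in double_KO (log2 change -0.81, SE 0.102, limma adjusted p = 0.02), with controls at 39.9 and 44. H2afv, which encodes a histone variant of the H2A.Z family, went from 78.6 and 74.6 RPM to 45.5 and 45.6 (log2 change -0.75, SE 0.102, adjusted p = 0.0267). Dennd3, a Rab exchange factor, went from 84.8 and 88.8 RPM to 59.9 and 52.1 (log2 change -0.64, SE 0.102, adjusted p = 0.0492). The predicted gene Gm26695 had 90.24 estimated reads in the Myc_KO libraries and none in double_KO. With 3 reads over the group standing in for double_KO, it was 31.9-fold higher in Myc_KO. The lower 95% limit of the ratio was 25.4 (counting error only). Just past the threshold and not called, Ms4a6b, of the MS4A membrane protein family, was at 41.7 and 40.9 RPM in Myc_KO and at 18.8 and 19.3 in double_KO (adjusted p = 0.0563).

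Max loss in the presence of Myc and in its absence was then compared gene by gene. Max itself fell by 1.12 on the log2 scale without Myc and by 1.78 with Myc. That difference of 0.66 (SE 0.165) was called (limma adjusted p = 0.021), so the fall of Max RNA was of unlike size. How far this enters the differences of other genes was not tested. The difference between the effects of Max loss without and with Myc passed the test for 3406 genes (27.3%), 1538 higher and 1868 lower. Of the 52 genes that rose without Myc, 30 (57.7%) also rose in Max_KO against control; they made up 1.08% of the 2782 genes that rose there, and 22.3% of all genes tested rose there. For these 30 the median log2 change was 1.01 without Myc and 0.87 with Myc, and the difference between the effects was called for 5. Another 9 of the 52 fell in Max_KO against control, where 17.4% of all genes tested fell, with medians of 1.36 and -1.04, and the difference was called for each of the 9. The other 13 were not called there, and the difference was called for all 13. All 52 were picked for a rise that itself enters the difference. The 9 were also picked for a fall in Max_KO against control, so a called difference was close to fixed in advance. The counts of called differences in these classes are therefore not set against the 27.3% of all genes.

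Rrp12 and Scfd2 showed close values in both settings. Rrp12 rose by 0.99 on the log2 scale without Myc and by 0.97 with Myc, and Scfd2 by 1.12 and 1.2; the differences had limma adjusted p-values of 0.941 and 0.812. Stag3 rose in both, by 3.94 without and 2.60 with Myc, and the difference of 1.33 (SE 0.248) was called (limma adjusted p = 0.0066). Pogk rose less without Myc, by 1.08 against 1.92 (difference -0.84, SE 0.12, adjusted p = 0.00253). In contrast, Tpi1 rose by 1.67 without Myc and fell by 1.04 with Myc, and Il1r2 rose by 1.84 and fell by 2.44. Mgarp, a mitochondrial membrane protein, had 1 read in Myc_KO and 48 in double_KO (ratio 45.2, 95% interval 7.74 to 1822, counting error only), and fell from 14.2 and 15.6 RPM in the controls to 5.53 and 1.76 in Max_KO. H2afv and Dennd3 fell in both settings, by 0.75 and 0.64 without Myc and by 1.07 and 0.38 with Myc, whereas Pcmtd1 rose by 0.55 with Myc.

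**Figure D4:**
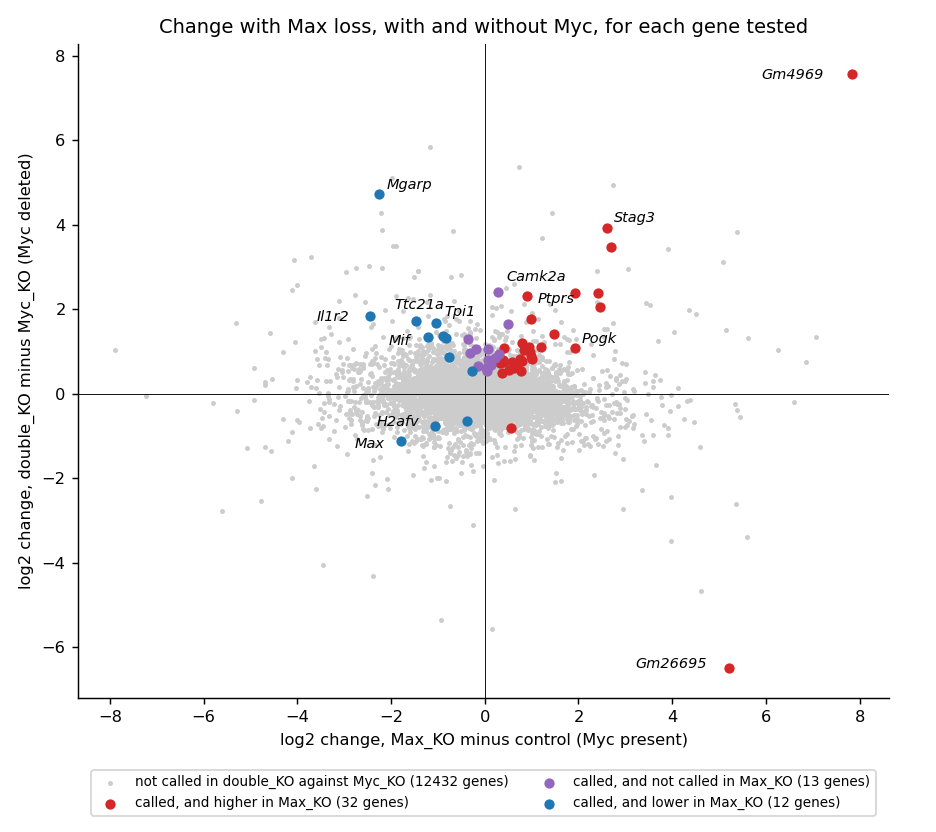
Log2 change with Max loss when Myc is present (Max_KO minus control, horizontal) against the change when Myc is absent (double_KO minus Myc_KO, vertical), 1 point for each of 12489 genes. The 57 genes called in double_KO against Myc_KO are coloured by their call in Max_KO against control; Stag3 and Pogk lie at upper right, and Tpi1, Mif and Il1r2 at upper left.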

How the data were processed

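RNA of 8 libraries was sequenced, and the authors deposited 1 table of log2 values for 15681 genes. CASAVA 1.8, cutadapt, RSEM 1.2.3 and the build GRCm38 are listed per the submitters' processing notes; their order, the annotation, the strand setting and the normalization tool are not given in those sources. Read from the values, each deposited log2 value is that of (estimated reads + 0.5) per M reads of an effective library size: taking the lowest value of a library as 0 reads, the others are multiples of 0.01 read within 0.0002 read. A library held 14.88 to 17.91 M estimated reads. These are not whole, so no count test was run. A planned log2(value + 1) step fell away because the values were already log2. Changes are relative to the other genes of the same library, and RSEM splits reads of near-identical genes by estimate.

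A 4-group model of all 8 libraries was fitted by limma 3.58.1 (R 4.3.3), using eBayes with a trend of variance on level; residual degrees of freedom were 4 and prior ones 4.23. Two-sided p-values of the 12489 tested genes received the Benjamini-Hochberg adjustment, and a gene was called below 0.05. The code was tested on simulated data. GENCODE vM21 gave symbols for 15622 genes. Tables and plots used Python 3.11.15 (scipy 1.17.1, numpy 2.4.6, pandas 2.3.3, matplotlib 3.10.9).

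The comparison, the 35 gene lists (594 entries, 522 tested) and the tests were chosen with earlier results of these data known. Named genes were the members of the Max network and PRC1.6, the 12 highest and 12 lowest called changes with no overlap and a mean of at least 5 RPM in 1 group (predicted genes left out), up to 4 called members of each list, the highest and lowest differences between both effects, and genes called the same way in both; with fewer than 6 genes called lower, uncalled ones of lowest p were eligible as values. Not all are reported here. Apex1, Mettl1, Pogk, Atp11a, Ass1, Gm4969, Gm26695 and the genes said to be outside a list were singled out after their values were seen. Where a group had 0 reads, 3 reads in total stood in for it, and the lower limit of an exact 95% interval is given. Ratios on 1 to 3 reads have an exact 95% interval. Alternatives were other filters, pseudocounts, scalings, eBayes settings, voom weights, thresholds, groups from the descriptions, a replicate block, the title numbers as a term and each library left out; a term for Xist or Ddx3y expression was added after the data were seen.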

Additional observations from a re-analysis of the deposited data

Results flagged for a closer look

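The effect of Max loss without Myc differed from its effect with Myc, by the limma test of the difference itself, for 3406 genes (27.3%). Listed here are 43 of these: 30 of the 57 called in double_KO against Myc_KO and 13 others named here. Values are log2 differences (double_KO minus Myc_KO, minus Max_KO plus control). Among the 30 it was higher without Myc for Mgarp (6.98), Il1r2 (4.28), Ttc21a (3.19), Tpi1 (2.71), Mif (2.54), Aldoc (2.26), Atp11a (2.13), Camk2a (2.13), Slc17a9 (1.66), Ighg1 (1.64), Ptprs (1.42), Stag3 (1.33), Nme2 (1.27), Shmt1 (1.25), Serf1 (1.15), Ass1 (1.01), Myo1g (0.81), Lap3 (0.80), Derl3 (0.78), Mthfd1l (0.72), Apex1 (0.68), Syce2 (0.65), Uqcc2 (0.63), Atic (0.57), Bcl9l (0.55) and Gart (0.48). For Max itself the difference was 0.66, its fall being 1.12 without Myc and 1.78 with Myc. It was lower without Myc for Pogk (-0.84), Pcmtd1 (-1.36) and Gm26695 (-11.71, a fitted value that rests on 0 reads in double_KO and is no bound). These genes were called in double_KO against Myc_KO, which enters the difference, so their share is not set against other genes.

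Among genes not called in double_KO against Myc_KO, the difference was higher without Myc for Slc16a3 (5.40), Bnip3 (3.05), Ldha (2.13), Mxi1 (1.77) and Mxd1 (1.62). It was lower without Myc for Myc itself (-0.86), Mga (-1.05), Cd3g (-2.56), Cd3d (-2.80), Ms4a6b (-3.16), Trac (-3.42), Cd3e (-4.90) and Gzmb (-5.14).

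Atp11a, a phospholipid flippase, was at 32.7 and 28.3 RPM in Myc_KO and at 73.8 and 77.5 in double_KO, and fell from 138 and 155 RPM in the controls to 79.6 and 86.9 in Max_KO. Its 2 groups lacking Max thus lay side by side. Ttc21a, a gene of cilia transport, was at 1.99 and 1.79 RPM in Myc_KO, 6.62 and 5.84 in double_KO, 7.25 and 6.4 in Max_KO, and 19.6 and 18.2 in the controls. Ptprs was also called in both settings, with log2 changes of 2.32 without Myc and 0.90 with Myc.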

How the results depend on the processing

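The 57 genes kept their direction in every alternative in which they were tested but the groups from the descriptions, where 35 did; with a mean log2 of 1 or more required, 53 were tested. Under those groups 0 genes were higher and 0 lower, and the log2 changes of Camk2a (-0.10), Tcam1 (-0.0073), Ptprs (-0.35), Ttc21a (-0.17), Serf1 (-0.29), Pcx (-0.36), Syce2 (-0.18), Shmt1 (-0.0497), Pno1 (-0.13), Nol8 (-0.14), Ung (-0.16), Ighg1 (-0.10), Apex1 (-0.0371) and Atp11a (-0.0708) were negative and that of Gm26695 was positive (0.43). Counts higher and lower were 7 and 2 with no mean-variance trend, 28 and 5 with only the groups compared, 19 and 7 without the 2 disputed libraries, 10 and 0 at an adjusted p under 0.01, 124 and 35 under 0.1, and 27 and 2 at 2-fold or more. Voom weights gave 42 and 12. Leaving out 1 library gave 7 to 84 higher and 0 to 30 lower; for Max_KO against control it gave 2676 to 5027 called (2676 and 3077 without control replicates 1 and 2, 3189 without Max_KO replicate 2), and for the difference between effects 1697 to 3325 (1697, 2147 and 2254 in the same order). The causes were not tested. Other filters, pseudocounts, scalings and robust eBayes kept both counts within 1.5 times.

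With a replicate block by the order of the title numbers, 87 genes were higher and 18 lower, and all 57 stayed called. With the series of the title numbers as a term, the counts were 210 and 81. Numbers are not said to mark mice or days. With 2 libraries a group, the same-number correlation of deviations was 0.315 for double_KO and Myc_KO and -0.105 for Max_KO and control. Whether libraries pair by number was not tested. The term for Xist or Ddx3y expression, which orders the control libraries the other way, gave 87 and 14. At 14.88 M reads and more a library, Gm26695 and Gm4969 rest on few or no reads in 1 group.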

Other observations

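None of the 22 DNA replication genes tested was called. All 22 had a log2 change above 0, with a median of 0.19. Both double_KO libraries lay above both Myc_KO libraries for 17, where 22.5% of all genes tested did so. Mcm6, a subunit of the replicative helicase, was at 286 and 281 RPM in Myc_KO and 354 and 368 in double_KO (limma adjusted p = 0.101). Cytosolic ribosomal protein genes summed to 29639 and 29299 RPM in Myc_KO and 34642 and 34543 in double_KO, against 71870.0 and 65763 in the controls. None of the 32 was called, and the median log2 change was 0.22.

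Circadian genes with E-boxes gave no call among 14, with a median log2 change of 0.41. Per2, a clock repressor, was at 16.3 and 14 RPM in Myc_KO and at 43.1 and 26.6 in double_KO (limma adjusted p = 0.0965). Tef, a clock output factor, was at 34.9 and 47.4 RPM in Myc_KO and 76.1 and 71.7 in double_KO (adjusted p = 0.0546). Of 29 interferon-stimulated genes none was called and the median was -0.17. In Max_KO against control 22 of them rose, where 22.3% of all genes tested rose.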
